A study of Mus musculus with 5 samples.

Results

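The 77 genes described here carry the symbols of mitochondrial ribosomal proteins. One of them, Mrps36, is now placed in another complex. They were chosen by symbol, as every gene with a probe set of 1 symbol that begins with Mrpl or Mrps followed by a digit, without pseudogenes, out of 19938 genes tested on the arrays. By symbol, 48 belong to the large subunit and 29 to the small subunit. Where a gene had more than 1 probe set, as 8 of the 77 did, the probe set with the highest mean signal over all 5 arrays was kept, the only measured value that the choice used. Mrpl53, seen only in a probe set with several symbols, was not analysed here.

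The arrays held RNA of mouse pancreatic islet cells sorted by flow cytometry, 3 arrays of Flattop-positive cells and 2 arrays of Flattop-negative cells. Both groups came from untreated C57BL/6 mice aged 8 to 12 weeks and heterozygous for the Flattop allele FVR (FVR/+), and each array held a pool from 4 to 6 mice. Sex had not been determined, and both fractions hold islet cells of several types. The series' title places the sort in a search for proliferative and mature β-cells. Flattop is the product of Cfap126, whose log2 signal was 6.07, 6.07 and 6.24 on the Flattop-positive arrays, against 5.52 and 5.44 on the Flattop-negative arrays.

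The mitochondrial ribosome translates the few proteins that mitochondrial DNA encodes, all of them core subunits of the respiratory chain and the ATP synthase. Its ribosomal RNAs come from mitochondrial DNA, while all its proteins are encoded in the nucleus, made in the cytosol and imported. Some of these proteins descend from those of the bacterial ribosome, and others are found only in mitochondria. In β-cells, respiration couples glucose metabolism to insulin release, so the machinery that builds the respiratory chain is part of what a glucose-responsive cell needs.

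Across genes the Flattop-positive arrays correlated with each other at r = 0.953 to 0.984, and the 2 Flattop-negative arrays at 0.846, the lowest of any pair; genes are not independent replicates. Of the 10 β-cell markers, 8 were higher without overlap in Flattop-positive cells, beside 13.7% of all genes, and Ins2 and Iapp overlapped. The δ and PP hormones Sst and Ppy were at 12.32 to 12.92 and 12.44 to 13.34 on the Flattop-positive arrays, at 8.08 and 8.98 on Flattop-negative replicate 1, and at 13.19 and 13.63 on Flattop-negative replicate 2. All 6 δ and PP markers lay below the Flattop-positive arrays on replicate 1 and above them on replicate 2. Their log2 differences were above 0 for 3 and below 0 for 3. Of 4 duct markers, Krt7 was higher without overlap and the other 3 overlapped. Immune markers did not move one way: of 11, C1qa and Cd79a were higher and C1qc and Itgam lower without overlap in Flattop-positive cells, and the other 7 overlapped. C1qa had 7.15, 6.98 and 6.02 in Flattop-positive cells, against 4.95 and 5.84 in Flattop-negative cells. Among those that overlapped, the macrophage gene Lyz2 was at 3.36 to 4.58 on the Flattop-positive arrays, 3.66 on Flattop-negative replicate 1 and 9.41 on Flattop-negative replicate 2, while another macrophage gene, Adgre1, had 3.37 to 3.42 in Flattop-positive cells and 3.55 and 3.40 in Flattop-negative cells. Of the 11 immune markers, 4 to 6 lay below the floor on each Flattop-positive array and 7 and 5 on the Flattop-negative arrays; of the 8 acinar markers, 3 to 7 and 5 and 3 did. The floor is the signal that 95% of the olfactory receptor genes stay under on an array, 4.29 to 4.45 on the Flattop-positive and 4.75 and 4.86 on the Flattop-negative arrays. All 8 acinar, 8 stellate and 7 endothelial markers had a log2 difference below 0. Of these, 3, 6 and 2 were lower without overlap, beside 21% of all genes. The 7 endothelial markers lay below the floor on every Flattop-positive array, and 7 and 5 of them did on the Flattop-negative arrays. Of the 8 stellate markers, 4 to 5 lay below it on the Flattop-positive arrays and 6 and 3 on the Flattop-negative arrays. The olfactory receptor genes moved the same way, with 937 of 1027 below 0 and a median log2 difference of -0.27. Of 6 α-cell markers, 4 had a log2 difference below 0 and 2 above, with 1 higher without overlap. On Flattop-negative replicate 2, 5 of the 6 lay above all Flattop-positive arrays. The part of cell makeup in the results below was not tested, and in such pools fewer cells of a type and less RNA per cell cannot be told apart.

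Mitochondrial ribosomal protein genes lay mostly higher in Flattop-positive cells. Of the 77 genes, 71 had a log2 difference above 0, against 40.8% of all genes tested, and 6 had one below 0. The median log2 difference was 0.72, with a middle range of 0.34 to 1.02, against a median of -0.10 over all genes. The medians of the genes' log2 signals were 7.33, 7.15 and 7.13 on the Flattop-positive arrays, against 6.86 and 6.23 on the Flattop-negative arrays. All 3 Flattop-positive medians thus lay above both Flattop-negative medians, and that of Flattop-negative replicate 2 was the lowest. For 39 genes every Flattop-positive array lay above every Flattop-negative array, 50.6% of the members beside 13.7% of all genes. Over all genes this share rose with mean log2 signal, from 1.26% under 5 to 39.7% over 9. No member was lower without overlap, where 21% of all genes were.

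In limma's model over all genes, 0 of the 77 passed an adjusted p of 0.05, as did 0% of all genes; the smallest adjusted p among them was 0.198. Without adjustment 30 members had a limma p below 0.05, beside 13.8% of all genes. All 30 also differed by 1.5-fold or more, and by this unadjusted rule 30 members were higher in Flattop-positive cells, beside 8.08% of all genes, and 0 were lower, beside 3.74% of all genes. On the arrays normalised again, the members' median log2 difference was 0.49 after quantile normalisation and 0.48 after cyclic loess. With cyclic loess 19 members were called higher by the same rule, beside 4.5% of all genes.

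**Figure D1:**
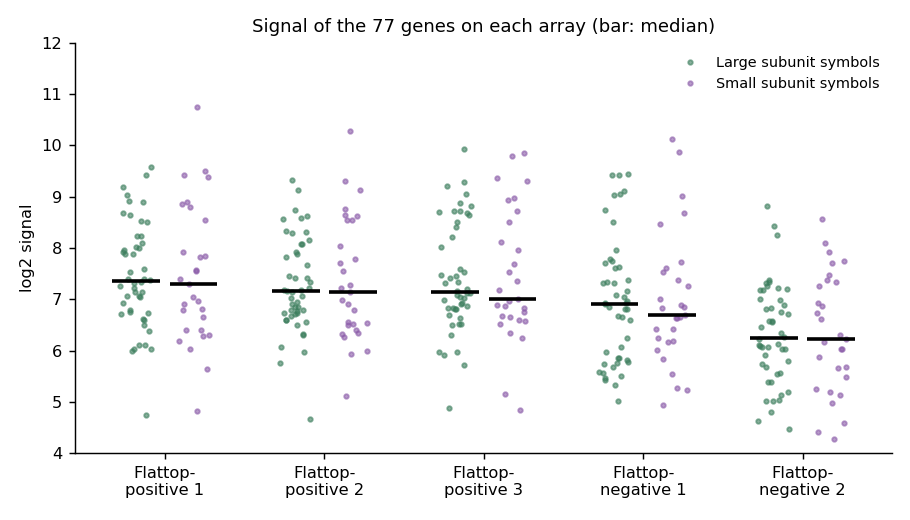
Log2 signal (vertical axis) of each mitochondrial ribosomal protein gene on each of the 5 arrays (horizontal axis), with large and small subunit symbols apart; each point is a gene and each bar a median. The medians of both subunits are lowest on Flattop-negative replicate 2, at 6.25 for large and 6.22 for small subunit symbols.

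The large subunit holds the site where peptide bonds form and the tunnel through which the new chain leaves. Its 48 genes by symbol had a median log2 difference of 0.74. Of them 45 were above 0 and 25 higher without overlap, beside 40.8% and 13.7% of all genes. The largest difference was that of Mrpl23, whose bacterial counterpart sits beside the exit of the tunnel. Its log2 signal was 9.19, 8.33 and 8.88 on the Flattop-positive arrays, against 6.25 and 7.02 on the Flattop-negative arrays. The groups stood well apart, with a log2 difference of 2.17 ± 0.36 (SE; limma adjusted p = 0.199).

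Mrpl34, the counterpart of one of the smallest bacterial ribosomal proteins, had a log2 signal of 7.41, 7.16 and 7.20 in Flattop-positive cells, against 5.44 and 5.40 in Flattop-negative cells. Here the arrays of each group agreed closely, and the log2 difference was 1.84 ± 0.19 (SE; limma adjusted p = 0.198), a 3.57-fold higher level. Mrpl54, which is found only in mitochondrial ribosomes, was at 9.42, 8.62 and 8.83 in Flattop-positive cells, against 7.10 and 7.37 in Flattop-negative cells. Mrpl18, whose bacterial counterpart binds ribosomal RNA in the central protuberance, was at 7.07, 7.19 and 6.99 in Flattop-positive cells, against 5.74 and 5.03 in Flattop-negative cells. Their log2 differences were 1.72 ± 0.30 and 1.70 ± 0.27 (SE), and neither passed limma's test (adjusted p = 0.199 and 0.198).

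The flexible stalk of the large subunit recruits translation factors. All 4 of its measured proteins and neighbours, Mrpl10, Mrpl11, Mrpl12 and Mrpl54, were higher without overlap in Flattop-positive cells, beside 13.7% of all genes. Mrpl12, the stalk protein itself, was at 7.96, 7.83 and 7.54 in Flattop-positive cells, against 6.81 and 6.71 in Flattop-negative cells. Mrpl10, which anchors the stalk, had the smallest difference of the 4, at 8.89, 8.57 and 8.68 in Flattop-positive cells, against 8.51 and 8.25 in Flattop-negative cells. Outside the stalk, a pair of genes with a known role were Mrpl2, close to the peptide bond-forming centre, with a log2 difference of 1.29 ± 0.21 (SE), and Mrpl58, which frees stalled ribosomes, with 1.40 ± 0.30 (SE). Both were without overlap (limma adjusted p = 0.199 and 0.218).

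The small subunit reads the messenger RNA. Its 29 genes by symbol had a median log2 difference of 0.70. Of them 26 were above 0 and 14 higher without overlap, beside 40.8% and 13.7% of all genes. Mrps21, the counterpart of a bacterial small subunit protein, had the largest log2 difference of all 77 genes, 2.31 ± 0.28 (SE; limma adjusted p = 0.198). Its log2 signal was 9.49, 9.30 and 9.37 in Flattop-positive cells, against 6.70 and 7.47 in Flattop-negative cells, a 4.94-fold higher level. Mrps26, found only in mitochondrial ribosomes, was at 7.05, 6.92 and 6.83 in Flattop-positive cells, against 5.27 and 5.13 in Flattop-negative cells. Mrps14, a protein of the head of the small subunit, was at 8.86, 8.65 and 8.71 in Flattop-positive cells, against 7.62 and 6.92 in Flattop-negative cells. The log2 differences of Mrps26 and Mrps14 were 1.73 ± 0.19 and 1.47 ± 0.26 (SE), with the groups apart in both (limma adjusted p = 0.198 and 0.199).

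A pair of genes with small subunit symbols, Mrps18a and Mrps30, belong to the large subunit in structures of the mammalian mitochondrial ribosome. Mrps18a was at 8.81, 8.54 and 8.98 in Flattop-positive cells, against 6.01 and 7.34 in Flattop-negative cells. The gap between the Flattop-negative arrays was wide, but both lay below all Flattop-positive arrays (log2 difference 2.10 ± 0.42 SE; limma adjusted p = 0.214). Its relatives Mrps18b and Mrps18c, of the small subunit, had log2 differences of 1.29 ± 0.35 and 1.299 ± 0.65 (SE; limma adjusted p = 0.262 and 0.429). Mrps36, now known as a subunit of the 2-oxoglutarate dehydrogenase complex and not of the ribosome, was at 6.91, 6.56 and 6.96 in Flattop-positive cells, against 6.63 and 5.88 in Flattop-negative cells. Placed by structure, the medians of the log2 differences were 0.78 for 50 large subunit genes and 0.69 for 26 small subunit genes. The difference between the subunits is small beside the spread of the genes within each, from -0.36 to 2.17 and from -0.27 to 2.31.

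By ancestry, 46 genes with a bacterial counterpart had a median log2 difference of 0.79, and 27 of them were higher without overlap, beside 13.7% of all genes. The 30 genes named as specific to mitochondria had 0.68, with 12 higher without overlap. Against Flattop-negative replicate 1 alone these medians were 0.55 and 0.07, and against replicate 2 alone 0.999 and 1.09.

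**Figure D2:**
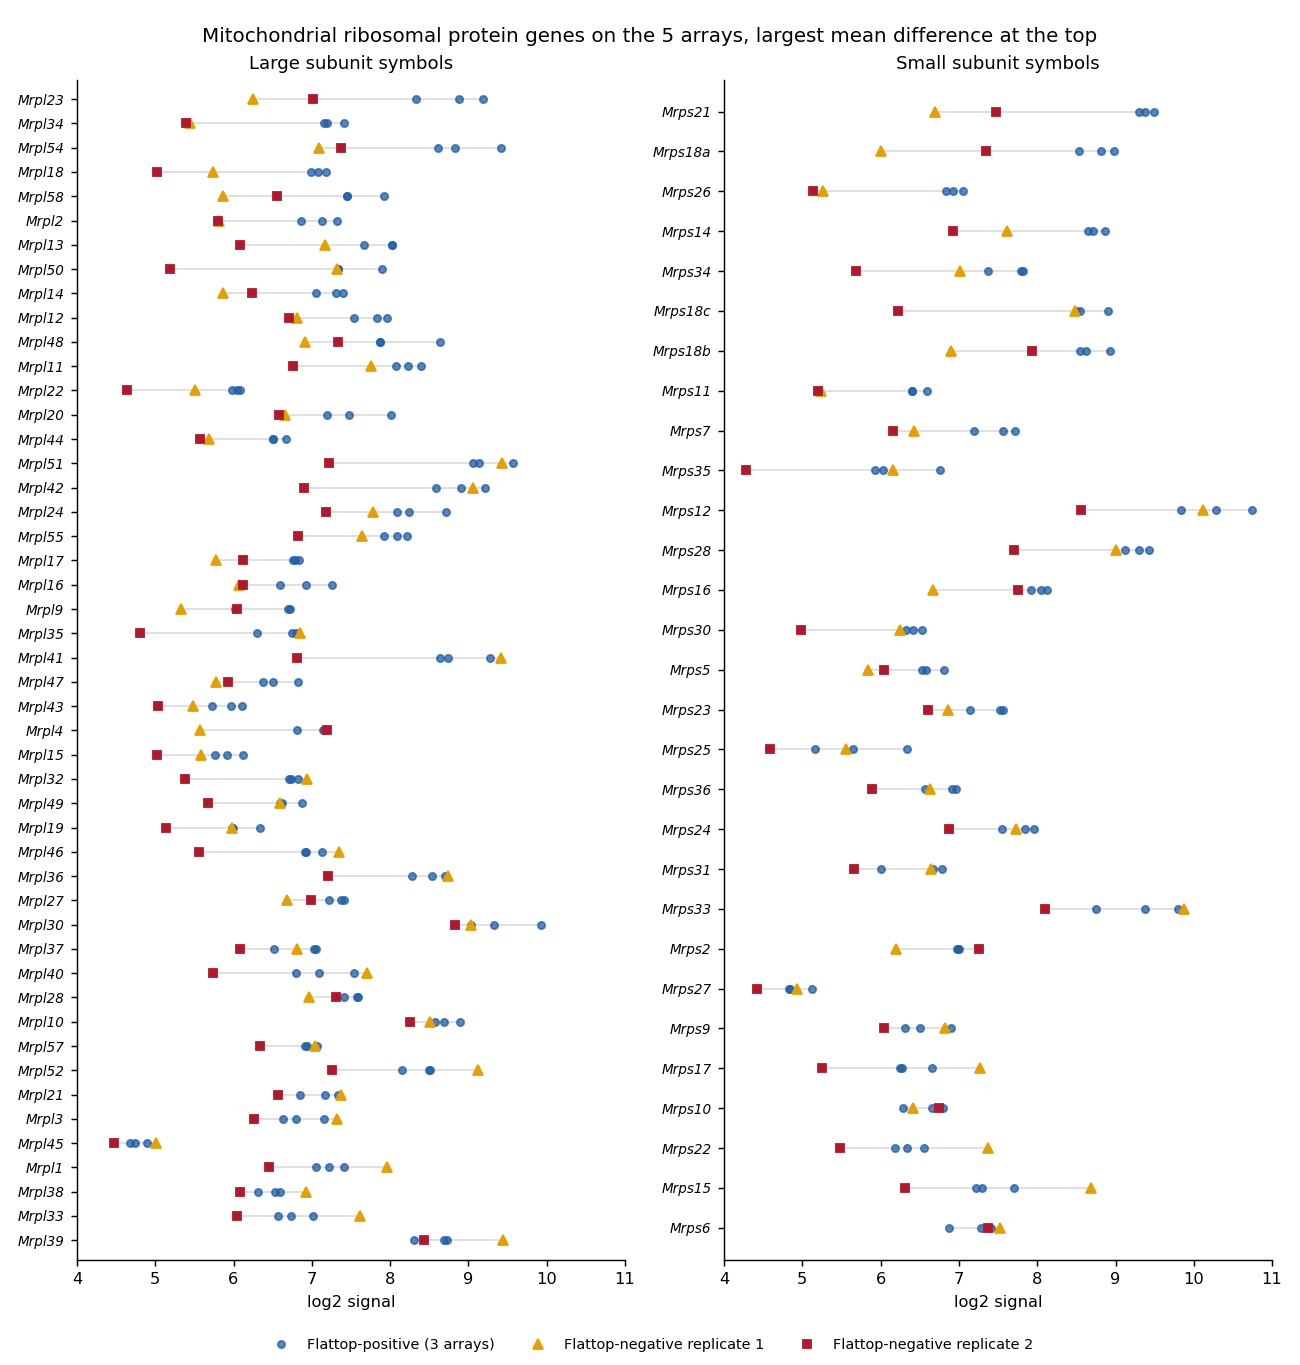
Log2 signal (horizontal axis) of every mitochondrial ribosomal protein gene on the 5 arrays, with large subunit symbols on the left and small subunit symbols on the right, sorted by log2 difference; circles are Flattop-positive arrays, triangles Flattop-negative replicate 1 and squares Flattop-negative replicate 2. In the upper rows both Flattop-negative arrays lie left of all Flattop-positive arrays, while in the lower rows the triangle often lies right of them and the square left.

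The Flattop-negative arrays gave different pictures of these genes. On Flattop-negative replicate 2, 71 of the 77 genes lay below all 3 Flattop-positive arrays, beside 28.7% of all genes, and 2 lay above them, beside 40.9% of all genes. On Flattop-negative replicate 1, 42 lay below all Flattop-positive arrays, beside 29.3% of all genes, and 19 lay above, beside 40% of all genes. The median of the Flattop-positive mean minus the Flattop-negative array was 0.27 for replicate 1 and 1.02 for replicate 2, against -0.07 and -0.08 over all genes. For large subunit symbols these medians were 0.42 and 1.01, and for small subunit symbols 0.18 and 1.13.

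For 17 genes, 22.1% of the members beside 9.13% of all genes, Flattop-negative replicate 1 lay above and replicate 2 below all Flattop-positive arrays. Mrps15, whose bacterial counterpart binds ribosomal RNA of the small subunit, was at 7.30, 7.22 and 7.70 in Flattop-positive cells, and at 8.69 and 6.31 in Flattop-negative cells. Mrps22, a small subunit protein found only in mitochondria, was at 6.18, 6.55 and 6.34 in Flattop-positive cells, and at 7.38 and 5.48 in Flattop-negative cells. Mrpl33, the counterpart of a bacterial large subunit protein, was at 6.74, 6.57 and 7.02 in Flattop-positive cells, and at 7.61 and 6.04 in Flattop-negative cells. In each of the 3 genes the Flattop-positive arrays lay between the Flattop-negative ones, and the log2 differences of -0.09, -0.07 and -0.05 are averages of opposite shifts. Mrpl38, a large subunit protein found only in mitochondria, did likewise, at 6.59, 6.31 and 6.53 in Flattop-positive cells and 6.92 and 6.08 in Flattop-negative cells.

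The reverse order was seen for Mrpl4 and Mrps2, both with bacterial counterparts. Mrpl4 was at 7.15, 7.15 and 6.82 in Flattop-positive cells, against 5.57 and 7.19 in Flattop-negative cells. Mrps2 was at 6.97, 6.98 and 6.998 in Flattop-positive cells, against 6.19 and 7.26 in Flattop-negative cells. Mrpl39 and Mrps6 were the genes with the lowest log2 differences, -0.36 ± 0.35 and -0.27 ± 0.24 (SE; limma adjusted p = 0.636 and 0.611). Mrpl39, found only in mitochondria, was at 8.69, 8.30 and 8.73 in Flattop-positive cells, against 9.45 and 8.43 in Flattop-negative cells. Mrps6, a small subunit protein with a bacterial counterpart, was at 7.40, 7.29 and 6.87 in Flattop-positive cells, against 7.53 and 7.38 in Flattop-negative cells. The groups overlapped in both genes.

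The groups were also compared with each Flattop-negative array left out in turn. In these fits the lone Flattop-negative array is assumed to vary like the Flattop-positive arrays, so only log2 differences are given for them. Mrps21 had a log2 difference of 1.92 without replicate 1 and 2.69 without replicate 2, Mrps18a 1.43 and 2.77, Mrpl34 1.86 and 1.82, and Mrps26 1.80 and 1.67. The order of the genes with the largest differences thus depended on the array, while the differences of Mrpl34 and Mrps26 hardly did.

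For 10 of the genes higher without overlap, the Flattop-negative arrays lay within 0.2 of each other. These were Mrpl2, Mrpl12, Mrpl16, Mrpl20, Mrpl34, Mrpl44, Mrpl47, Mrps5, Mrps11 and Mrps26, picked after their values were seen. Their log2 differences ran from 0.70 for Mrps5 to 1.84 for Mrpl34. For Mrpl47 and Mrps5 the closeness held only on the probe set kept. The other probe set of Mrpl47 was at 5.15, 5.87 and 5.04 in Flattop-positive cells, against 6.10 and 4.10 in Flattop-negative cells. That of Mrps5 was at 6.10, 6.41 and 6.24, against 4.82 and 5.65. At the other end, 30 genes had Flattop-negative arrays more than 1 log2 unit apart, 25 of them higher on replicate 1. On the probe sets kept, the widest gaps were those of Mrpl41, Mrps15, Mrps18c and Mrpl51. Mrpl41 was at 8.64, 8.74 and 9.28 in Flattop-positive cells, against 9.42 and 6.82 in Flattop-negative cells. Mrps18c was at 8.90, 8.55 and 8.50 in Flattop-positive cells, against 8.48 and 6.22 in Flattop-negative cells. Mrpl51 was at 9.57, 9.13 and 9.06 in Flattop-positive cells, against 9.43 and 7.22 in Flattop-negative cells. In all 3 replicate 1 lay close to the Flattop-positive arrays and replicate 2 well below them. The kept probe sets of Mrpl41 and Mrpl51 stood among genes of other chromosomes, as described below. On its own locus Mrpl41 had no such gap, with 6.16 and 6.28 on the Flattop-negative arrays. Mrpl51 kept one there, with 6.30 and 4.49. The median SD over the 77 genes was 0.21 among Flattop-positive arrays and 0.58 between Flattop-negative arrays.

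**Figure D3:**
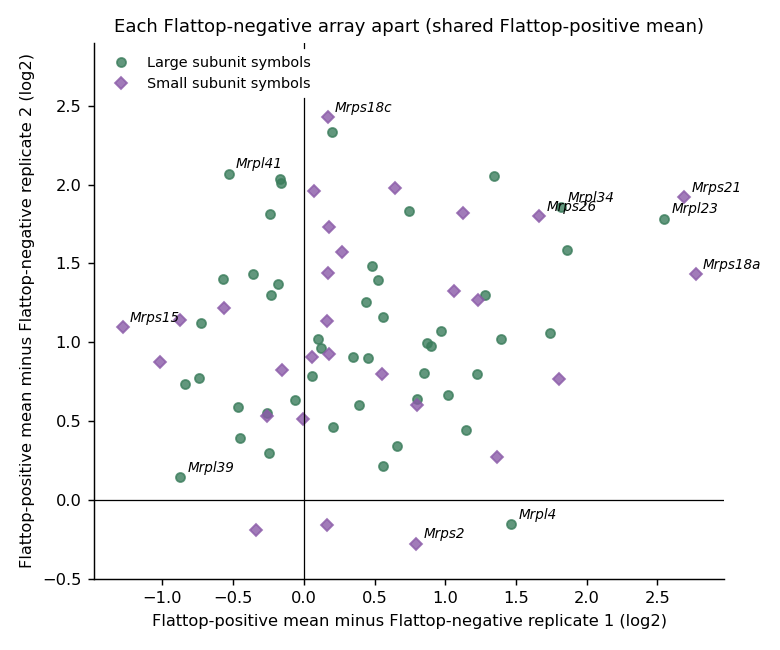
Flattop-positive mean minus Flattop-negative replicate 1 (horizontal axis) and minus Flattop-negative replicate 2 (vertical axis), both in log2 units, for each gene, with large and small subunit symbols in different colours; both axes share the Flattop-positive mean. Nearly all points lie above 0 on the vertical axis, while they spread from -1.28 for Mrps15 to 2.77 for Mrps18a on the horizontal axis.

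The signal level of a gene moved with its difference over all genes, so the members were also read beside genes of like mean log2 signal. Of the 77, 30 had a mean log2 signal of 6 to 7, with a median log2 difference of 0.58, against 0.30 over the 3103 genes there. Another 21 had 7 to 8, with 0.94 against 0.34 over 2240 genes, and 14 had 8 to 9, with 0.92 against 0.45 over 1045 genes. Against Flattop-negative replicate 1 alone, the members' medians in these ranges were 0.17, 0.65 and 0.19, against 0.29, 0.26 and 0.37 over all genes. Against replicate 2 alone they were 0.85, 1.06 and 1.58, against 0.35, 0.53 and 0.54. The members thus stood above genes of like signal in every one of these ranges against replicate 2, and in 1 of the 3 against replicate 1. Higher without overlap were 11 of 30, 16 of 21 and 8 of 14 members in these ranges, beside 27.2%, 29.9% and 36.7% of all genes there. From 5 to 6 it was 4 of 7 members beside 13.7%, and over 9 it was 0 of 3 beside 39.7%. The highest mean log2 signals were those of Mrps12, a protein of the decoding centre, at 9.91, and Mrpl30, at 9.23. The lowest were those of Mrpl45, which ties the ribosome to the inner membrane, at 4.76, and Mrps27, at 4.83. No member lay below the floor on a Flattop-positive array or on Flattop-negative replicate 1, and 6 did on replicate 2.

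**Figure D4:**
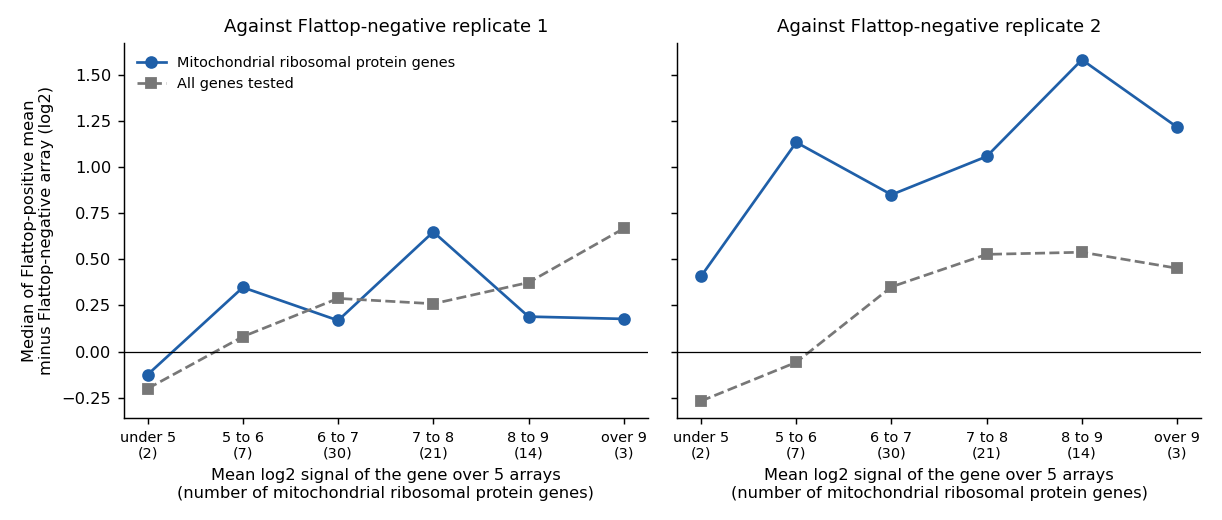
Median of the Flattop-positive mean minus each Flattop-negative array (vertical axis, log2 units) for genes grouped by mean log2 signal (horizontal axis), for mitochondrial ribosomal protein genes (circles, numbers in brackets) and all genes tested (squares). Against replicate 2 the circles lie above the squares at every level, and against replicate 1 the lines cross; the ranges under 5, 5 to 6, 8 to 9 and over 9 hold under 20 members each.

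Several of these genes have processed copies elsewhere in the genome, so the place of each probe set was checked by the chromosomes of the 10 genes before and after it in ID order. For 5 members, Mrpl27, Mrpl41, Mrpl48, Mrpl51 and Mrps33, the probe set with the highest signal stood among genes of another chromosome than its own gene, 6.49% of the members beside 1.31% of all genes. For Mrpl27 and Mrpl48 that chromosome, 18 and 4, is where the gene table lists the pseudogenes Mrpl27-ps and Mrpl48-ps. Whether these probe sets read the gene or a copy was not tested. Mrpl41 on its own locus was at 5.92, 6.03 and 6.76 in Flattop-positive cells, against 6.16 and 6.28 in Flattop-negative cells, a log2 difference of 0.01 in place of 0.77. That of Mrpl51 was 0.62 in place of 0.93, that of Mrpl27 0.64 in place of 0.50, and that of Mrps33 0.37 in place of 0.33. Mrpl27 was higher without overlap only on the probe set kept. On its own locus the groups overlapped, at 6.433, 6.084 and 6.753 in Flattop-positive cells, against 6.575 and 4.996 in Flattop-negative cells. With all such probe sets left out, which removes Mrpl48, the median log2 difference of the 76 remaining genes was 0.68. Of these genes, 37 were higher without overlap. Mrpl23, the large subunit gene with the largest difference, had 2.17 on its own locus and 2.24 on a second probe set among genes of chromosome 2, where Mrpl23-ps1 lies.

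Short motifs around the starts of the genes were searched in RefSeq windows of 250 bases before to 50 after the start (GRCm38.p6), on both strands. A window was matched for 68 of the 77 genes and for 15614 of all genes tested. The factors meant are known for driving nuclear genes of mitochondrial proteins, NRF-1, YY1 and the ETS family that includes GABP. The stretches before the starts of Mrps21, Mrps18a, Mrpl34 and Mrpl23, the genes with the largest differences that had a window, and of Mrpl39, the gene with the lowest difference, are shown 5′ to 3′ with matches to the ETS core CCGGAAG and to the NRF-1 motif CGCANGCG in capitals.
Mrps21 (chr3:95871515-95871614, minus strand): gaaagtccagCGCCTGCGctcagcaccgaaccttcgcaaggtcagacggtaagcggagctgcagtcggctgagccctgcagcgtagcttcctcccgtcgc
Mrps18a (chr17:46110904-46111003, plus strand): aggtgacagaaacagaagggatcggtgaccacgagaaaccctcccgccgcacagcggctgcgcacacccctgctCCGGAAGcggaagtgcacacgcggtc
Mrpl34 (chr8:71464826-71464925, plus strand): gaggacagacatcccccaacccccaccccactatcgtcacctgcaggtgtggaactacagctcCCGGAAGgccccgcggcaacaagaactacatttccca
Mrpl23 (chr7:142532932-142533031, plus strand): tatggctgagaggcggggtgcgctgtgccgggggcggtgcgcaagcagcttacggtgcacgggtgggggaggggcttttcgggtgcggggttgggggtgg
Mrpl39 (chr16:84735245-84735374, minus strand): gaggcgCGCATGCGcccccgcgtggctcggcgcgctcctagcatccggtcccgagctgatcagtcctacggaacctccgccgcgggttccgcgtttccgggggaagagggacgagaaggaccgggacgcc

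Mrps18a and Mrpl34 carried the ETS core shortly before the start, Mrps18a also a YY1 core after it, and Mrps21 an NRF-1 match before it and an ETS core after it. Mrpl23 held neither in its window, and Mrpl39, which was not higher in Flattop-positive cells, held the NRF-1 palindrome CGCATGCG. The ETS core was in the windows of 24 members, 35.3% of the 68, against 12.5% of all windows. The YY1 core AAGATGGC was in 12, 17.6% against 3.43%, and the NRF-1 motif with any middle base in 20, 29.4% against 12.4%. The NRF-1 palindrome, which is part of the latter, was in 7, 10.3% against 2.75%. At least 1 of the ETS, YY1 and NRF-1 motifs was in 42 windows, 61.8% against 24.7%, with ETS and YY1 together in 3 and ETS and NRF-1 together in 8. Members were close to all genes for the GC box GGGCGG, at 50.0% against 49.9%, and for the CCAAT box, at 38.2% in both, and below them for TATAAA, at 5.88% against 12.1%. The median log2 difference was 0.83 for members with the ETS core and 0.67 for those without, and 0.69 and 0.71 with and without the YY1 core, and 0.73 and 0.71 with and without the NRF-1 motif. The letters were thus more frequent in the members' windows than in all windows, which was not tested; whether the log2 differences differ between members with and without them was not tested either. Of the 12 motifs searched, the other 5 were GCATGCGC (11.8% against 3.9%), ACCGGAAG (13.2% against 3.24%, part of the ETS matches), TGACGTCA (2.94% against 2.49%), CTCGCGAG (2.94% against 1.43%) and ACTACAA (7.35% against 3.8%).

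**Figure D5:**
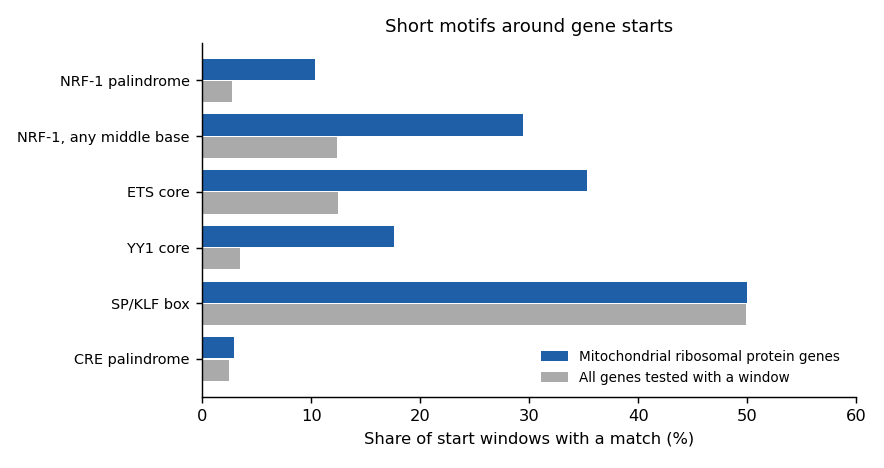
Share of start windows, in percent (horizontal axis), with at least 1 match to 6 of the motifs searched (vertical axis), for the 68 mitochondrial ribosomal protein genes with a window and for all 15614 genes tested with one. The ETS, YY1 and NRF-1 shares are higher among the members, and the SP/KLF shares are alike.

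Many of these genes start back to back with another gene. In the same RefSeq windows, a start on the other strand within 500 bases, pointing away, was found for 23 of the 68 genes, 33.8% against 12.8% of all genes with a window. Mrps11 and Mrpl46, of the small and the large subunit, start 42 bases apart, and the whole stretch between their starts is shown, in the direction of Mrps11, because it lies before both genes; it held no match to the ETS, YY1 or NRF-1 motifs.
Mrps11 and Mrpl46 (chr7:78783090-78783130, plus strand): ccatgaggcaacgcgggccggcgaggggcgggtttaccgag

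The pair differed in signal. Mrps11 was at 6.41, 6.41 and 6.60 in Flattop-positive cells, against 5.24 and 5.20 in Flattop-negative cells, and Mrpl46 was at 6.92, 6.92 and 7.13 in Flattop-positive cells, against 7.35 and 5.55 in Flattop-negative cells. Mrps11 was thus without overlap (log2 difference 1.25 ± 0.18 SE; limma adjusted p = 0.198), and Mrpl46 was not. Of the 19 back-to-back partners that were tested and are no members, 13 had a log2 difference above 0 and 6 below 0. Higher without overlap were 6, beside 13.7% of all genes. The partners' median log2 difference was 0.12, against 0.68 for the mitochondrial ribosomal protein genes beside them. The 2 sides were not matched for signal. Some partners lay at or near the floor, such as Ska3, at 3.48 to 3.93, and Eme1, at 4.13 to 4.55. Others lay well above it, such as Fau, at 8.99 to 11.33. The complex I gene Ndufb5, partner of Mrpl47, had 1.49 ± 0.28 (SE; limma adjusted p = 0.207). Tcp1, a chaperonin subunit and partner of Mrpl18, had 0.20 ± 0.30 (SE; limma adjusted p = 0.760), beside 1.70 for Mrpl18. Partners were measured by separate probe sets.

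Other genes of mitochondrial translation had smaller median differences. The nuclear lists also had lower mean log2 signals. Their medians were 6.44 for ribosomal proteins with other names, 6.41 for translation factors and 5.79 for assembly genes. They were 5.47 for synthetases and 5.62 for genes of mitochondrial DNA replication and transcription, against 6.97 for the 77 genes. Over all genes the median log2 difference was -0.01 at signals of 5 to 6 and 0.30 at 6 to 7. The part of signal level was not tested. Of 4 ribosomal proteins with other names, Dap3, Gadd45gip1, Chchd1 and Ptcd3, 3 had a log2 difference above 0, and Dap3, a GTP-binding protein of the small subunit, was higher without overlap, with 0.60 ± 0.20 (SE; limma adjusted p = 0.307). Of 13 translation factors, 5 were higher without overlap, beside 13.7% of all genes, and the median log2 difference was 0.40. By the unadjusted rule 3 were called higher and 0 lower, beside 8.08% and 3.74% of all genes. Tufm, the elongation factor that brings transfer RNAs to the ribosome, was at 6.26, 6.25 and 6.60 in Flattop-positive cells, against 4.89 and 5.38 in Flattop-negative cells. Oxa1l, which inserts the new chains into the inner membrane, had a log2 difference of 0.90 ± 0.31 (SE). Neither passed limma's test (adjusted p = 0.214 and 0.315).

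Of 30 genes of ribosome assembly and ribosomal RNA modification, 11 were higher and 1 lower without overlap, beside 13.7% and 21% of all genes. Their median log2 difference was 0.23. The protease Clpp had 1.42 ± 0.24 (SE) and the assembly factor Mpv17l2 0.97 ± 0.23 (SE; limma adjusted p = 0.199 and 0.238). The 19 mitochondrial aminoacyl-tRNA synthetase and amidotransferase genes, which charge the transfer RNAs, had a median of 0.08, with 3 higher and 1 lower without overlap. The 16 genes of mitochondrial DNA replication and transcription had 0.10, with 3 higher and 1 lower. The shares higher, 15.8% and 18.8%, were near the 13.7% of all genes. Of the proteins made by these ribosomes, 2 were measured as transcripts. COX2 was at 12.62, 12.15 and 12.48 in Flattop-positive cells, against 12.74 and 12.08 in Flattop-negative cells, and ND3 at 12.30, 11.91 and 11.50, against 12.40 and 11.21. Both overlapped between the groups, with log2 differences of 0.01 ± 0.28 and 0.10 ± 0.43 (SE; limma adjusted p = 0.988 and 0.928).

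Complex I of the respiratory chain holds subunits made by the mitochondrial ribosome. Its 35 measured nuclear subunits had a median log2 difference of 1.11, with 21 higher without overlap, beside 13.7% of all genes. Their medians were 0.52 against Flattop-negative replicate 1 and 1.34 against replicate 2. The median of their mean log2 signals was 8.63, beside 6.97 for the mitochondrial and 11.02 for the cytosolic ribosome. The 61 genes of the cytosolic ribosome had a median of 0.51. Without overlap 19 were higher and 2 lower, beside 13.7% and 21% of all genes. The 2 lower ones, Rpl39l and Rpl3l, lay below the floor on all 5 arrays. The medians of the 61 genes against the Flattop-negative arrays ran the other way, 0.66 for replicate 1 and 0.11 for replicate 2, beside 0.27 and 1.02 for the mitochondrial ribosome. Differences between these lists were not tested.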

How the data were processed

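Each array's deposited log2 signals were summarised per probe set by RMA, with version 1.3.0.187 of Affymetrix Expression Console named in the submitters' processing notes. The build of the genome was not given in the sources used here. The platform annotation pairs 21789 of the 35556 probe sets with exactly 1 symbol; these gave 19938 genes, each by its probe set with the highest mean signal. Array medians were 4.74 to 4.98. No detection calls were used, and the number of arrays limits the precision.

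Groups were compared over all genes in limma 3.58.1 (R 4.3.3), with group as the only term, moderated variances, two-sided tests and Benjamini-Hochberg adjustment. Each array is 1 pool, and p-values measure the spread between these pools. With 3 and 2 arrays, the smallest p of a one-sided exact permutation test is 0.1. Differences are Flattop-positive minus Flattop-negative on the log2 scale; ± SE is the model's. On simulated data for this comparison (19938 genes, 200 changed in each of 5 runs), changes of 1, 2 and 3 log2 units were recovered for 0%, 76.5% and 95.4% of the changed genes, with 0, 10.2 and 12.2 false calls per run. The simulated noise was independent between genes and of equal spread on all 5 arrays. The members' median SD was 0.21 among Flattop-positive and 0.58 between Flattop-negative arrays, so recovery in these data may differ.

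The members, lists and motifs were chosen with earlier results of these data known, so sums over them have no test. Genes shown in full are the 8 with the largest difference without overlap, those below 0, the 4 widest gaps between Flattop-negative arrays and the extremes of mean signal; others were picked after their values were seen. Structural placing, bacterial counterparts and gene roles are background knowledge. Promoter windows are from RefSeq. The alternatives left out each array or the dim genes, normalised or centred the arrays again, averaged all probe sets of a gene, blocked on the replicate number, and used another variance model and array weights. The probe set locus check and the fit without Mrps36 were chosen after seeing the data. Counts and medians were made in pandas 2.3.3, and figures in matplotlib 3.10.9.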

Additional observations from a re-analysis of the deposited data

How the results depend on the processing

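The members' median log2 difference (0.72) stayed above 0 in all 15 alternatives run, between 0.27 without Flattop-negative replicate 2 and 1.02 without replicate 1. Leaving out each array in turn gave 0.42 to 1.01 for large and 0.18 to 1.13 for small subunit symbols, 22 to 52 members called higher and 0 to 7 called lower at the unadjusted p, 0 to 4 past the adjusted p, and 41 to 71 higher and 0 to 19 lower without overlap. Cyclic loess gave 19 members called higher by the unadjusted rule, beside 4.5% of all genes, 1 called lower and 2 lower without overlap. Repeated quantile normalisation gave 2 lower without overlap. With the replicate number as a block, 22 members were called higher, beside 6.98% of all genes, 0 were called lower and 0 passed the adjusted p. Arrays with the same number deviated from their group means with r = 0.182 for number 1 and -0.137 for number 2. With 2 Flattop-negative arrays their deviations are exact opposites, so these values cannot tell whether the numbers pair the arrays. Among the genes shown in full, the signs of genes near 0 turned: with arrays centred on their medians Mrps15 had 0.086, Mrps22 0.11, Mrpl33 0.12 and Mrpl38 0.15, and with the block Mrpl45 had -0.034. On leaving out an array, Mrpl39 ran from -0.87 to 0.15, Mrps15 from -1.28 to 1.10, Mrps22 from -1.02 to 0.87, Mrpl33 from -0.84 to 0.73, Mrpl38 from -0.45 to 0.39, Mrpl41 from -0.53 to 2.07, Mrpl51 from -0.17 to 2.03, Mrpl45 from -0.25 to 0.30 and Mrps27 from -0.0037 to 0.52. The cause of these turns was not tested beyond the array left out.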
